A study of Mus musculus with 75 samples.

Results

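The regions described here are stretches of open chromatin that were detected by ATAC-seq in mouse skin fibroblasts at passage 1 (P1) and at no later passage. Peaks on the 19 autosomes and the X chromosome were merged wherever they overlapped over 13 samples, of which 4 were taken at P1 and 3 at every later passage (P3, P5 and P7), which gave 306843 regions. A region was chosen when at least 3 of the 4 P1 samples had a peak in it and none of the 9 later samples did. Of all regions, 2631 met this rule, and 148076 regions had a peak in at least 3 P1 samples whatever the later ones showed. The members were therefore selected on measured peak presence, and the peak values below describe them without a test.

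The cells were untreated fibroblasts from the skin of C57BL/6 mice, females aged 2 months. They grew in high-glucose DMEM with fetal bovine serum and were split at each passage until they entered replicative senescence. No transgene or deletion was carried by any of these groups. RNA-seq of 4 libraries per passage provided a readout that the choice of regions did not use. The labels do not state whether replicates were separate mice or separate dishes, so p-values measure the spread between these libraries, which may be technical.

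ATAC-seq uses a transposase that cuts DNA where nucleosomes leave it accessible, and a peak marks a site where cuts pile up. Such sites are mostly promoters, where transcription starts, and distal enhancers, which bind combinations of transcription factors and are more specific to a cell state than promoters are. Primary dermal cultures begin as a mixture of fibroblasts with some other skin cells, and serial passaging changes both the composition of the culture and the state of its fibroblasts until division stops.

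A few of the sequences show what these regions look like, all on the forward strand of GRCm38 (mm10) unless stated. The first set holds 3 of the strongest distal members and a member near the macrophage gene Adgre1. Capitals mark matches to 7 short motifs (AP-1, TEAD, homeobox, NFY, PU.1, RUNX and the MYOD E-box) on either strand. The Uroc1 member, 13669 bases from the start of Zxdc, was printed and searched only in the 201 bases around its summit. The others were printed and searched over their full length. That Uroc1 window and the Adgre1 member, 10715 bases from the start of its gene, each held 1 AP-1 match. The region on chromosome 17 held 1 homeobox match and the one in Rbfox1 held no match to the 7 motifs.
Uroc1 intron, chr6:90355725-90355925: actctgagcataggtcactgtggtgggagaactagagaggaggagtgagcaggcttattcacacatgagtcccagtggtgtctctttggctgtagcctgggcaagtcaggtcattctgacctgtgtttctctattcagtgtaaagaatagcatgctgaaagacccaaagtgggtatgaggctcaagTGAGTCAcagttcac
intergenic, chr17:51369128-51369342: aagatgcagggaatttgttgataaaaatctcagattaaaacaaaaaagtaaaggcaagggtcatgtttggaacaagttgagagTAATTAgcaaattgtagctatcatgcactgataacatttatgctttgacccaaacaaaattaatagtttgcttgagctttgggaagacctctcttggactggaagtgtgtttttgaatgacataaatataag
Rbfox1 intron, chr16:6959685-6959900: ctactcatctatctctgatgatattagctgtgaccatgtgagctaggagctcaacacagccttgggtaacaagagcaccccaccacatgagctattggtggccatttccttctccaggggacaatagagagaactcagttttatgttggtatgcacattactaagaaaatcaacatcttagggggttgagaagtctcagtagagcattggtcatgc
near Adgre1, chr17:57347826-57348092: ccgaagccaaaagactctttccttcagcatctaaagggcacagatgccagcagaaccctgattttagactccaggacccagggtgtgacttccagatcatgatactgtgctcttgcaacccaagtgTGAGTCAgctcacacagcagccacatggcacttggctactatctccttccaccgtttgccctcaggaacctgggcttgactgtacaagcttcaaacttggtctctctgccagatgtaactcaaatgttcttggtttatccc

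The second set holds promoter members among the 12 strongest, at genes whose RNA was lower at P7 (below), chosen from the rule-named members after those values were seen. Capitals mark CpG dinucleotides, which are dense in the promoters of broadly used genes. The Pianp member held 35 of them at a GC content of 72%, the Creb5 member 10 at 54.5%, the Bcl11a member 8 at 57.5% and the Ppat member 2 at 39.8%. None of the 4 held a match to the 7 motifs above.
Pianp promoter, chr6:124996564-124996859: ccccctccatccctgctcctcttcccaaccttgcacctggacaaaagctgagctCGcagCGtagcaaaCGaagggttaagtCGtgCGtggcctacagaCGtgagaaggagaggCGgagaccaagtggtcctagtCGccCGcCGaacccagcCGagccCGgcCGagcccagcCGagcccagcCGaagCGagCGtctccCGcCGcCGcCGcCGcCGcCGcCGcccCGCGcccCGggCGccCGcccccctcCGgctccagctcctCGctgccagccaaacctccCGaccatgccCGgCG
Bcl11a promoter, chr11:24077898-24078125: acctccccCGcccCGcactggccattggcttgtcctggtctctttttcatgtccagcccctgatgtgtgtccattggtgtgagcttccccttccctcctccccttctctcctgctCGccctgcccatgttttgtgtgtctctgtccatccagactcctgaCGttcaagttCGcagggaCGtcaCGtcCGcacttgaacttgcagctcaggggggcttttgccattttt
Ppat promoter, chr5:76952238-76952448: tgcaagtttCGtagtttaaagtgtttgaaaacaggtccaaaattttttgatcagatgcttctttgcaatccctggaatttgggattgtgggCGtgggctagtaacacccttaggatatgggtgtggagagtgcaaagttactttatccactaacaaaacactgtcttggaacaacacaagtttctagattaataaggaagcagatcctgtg
Creb5 promoter, chr6:53574175-53574449: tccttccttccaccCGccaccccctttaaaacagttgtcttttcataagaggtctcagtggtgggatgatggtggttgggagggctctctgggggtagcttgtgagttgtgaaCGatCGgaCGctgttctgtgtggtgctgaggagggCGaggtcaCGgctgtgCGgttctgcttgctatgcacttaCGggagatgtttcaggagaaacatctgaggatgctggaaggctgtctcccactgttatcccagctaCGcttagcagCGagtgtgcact

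The third set shows that some members share stretches of sequence with other members. Stretches of 25 bases were compared between the 201-base windows around the members' strongest summits, leaving out simple sequence. In all, 200 members (7.6%) shared at least 1 such stretch with another member, in 33 groups, and the largest group held 53 members on 18 chromosomes. Groups were chained, so a member need not share a stretch with every other member of its group. The same share was not taken in other regions. The members of the largest group were mostly repeat sequence (median 87.6% of the window soft-masked in the reference). The commonest stretch of this group, in capitals, is shown in 3 of the stronger members that held it, each on the strand named.
B230214G05Rik intron, chr15:88355731-88355931, reverse strand: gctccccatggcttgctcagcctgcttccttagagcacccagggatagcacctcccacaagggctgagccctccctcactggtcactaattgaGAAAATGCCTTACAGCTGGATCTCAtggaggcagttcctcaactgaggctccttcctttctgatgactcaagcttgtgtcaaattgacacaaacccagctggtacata
distal member on chromosome 11, chr11:113316723-113316923, forward strand: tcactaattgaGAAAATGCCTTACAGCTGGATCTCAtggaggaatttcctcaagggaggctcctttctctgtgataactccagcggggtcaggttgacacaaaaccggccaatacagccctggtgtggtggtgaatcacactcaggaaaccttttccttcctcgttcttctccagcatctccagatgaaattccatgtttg
near 4930433I11Rik, chr7:40944122-40944322, reverse strand: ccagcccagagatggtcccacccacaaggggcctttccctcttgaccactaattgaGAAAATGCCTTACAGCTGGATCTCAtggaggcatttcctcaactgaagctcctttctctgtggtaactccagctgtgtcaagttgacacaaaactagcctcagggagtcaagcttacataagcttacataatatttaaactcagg

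This stretch, chosen because it was the commonest among the members, was present in 19 member windows, in 64 windows of the 145445 regions open at P1 and later, and in 166 windows of all 306843 regions. It occurred 3093 times on the chromosomes used. Of the 53 members in its group, 30 had a peak in all 4 P1 samples and 32 were intergenic. The next groups held 47, 23 and 10 members, and their commonest stretches were present in 15, 7 and 4 members against 37530, 1542 and 30831 sites in the genome. The study's methods state that only uniquely mapped reads were kept, and copies of a repeat differ in how many reads can be placed in them. The part of read placement in these peaks was not tested.

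The peaks in the members were weak. Peak strength is given here as MACS2's -log10 p, the evidence for more cuts than the local background, and as its percentile among all summits of the same sample, since the number of reads per sample is not in the peak lists and is unknown here. The median member stood at the 22.7th percentile (lower and upper quartile 14.8 and 32.5, highest 75.4), against 61.6 for regions open at P1 and later. The median -log10 p of the members was 6.79 in P1 replicate 1, 6.17 in replicate 2, 7.95 in replicate 3 and 7.12 in replicate 4. Regions open at P1 and later had medians between 25.4 and 28.4 in the same samples. Members were also narrower than those regions, with a median width of 362 bases against 720. This was not particular to them, as P7-only regions had a median of 312 bases and all regions 423. Weak regions open at P1 and later (defined below) had 520. A region is the merge of the peaks of its samples, so its width also depends on how many samples had a peak.

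**Figure D1:**
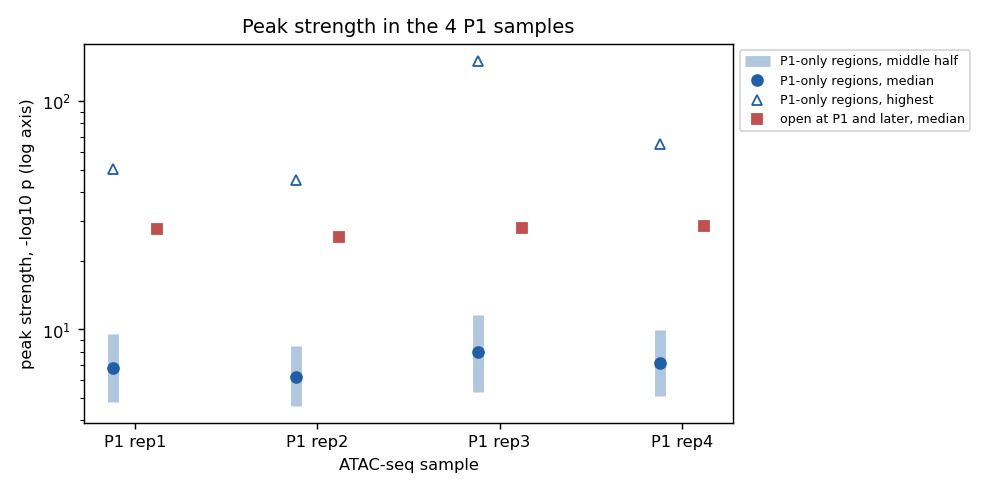
Peak strength (-log10 p, log axis) in each of the 4 P1 ATAC-seq samples, with the median (circle), quartiles (bar) and highest value (triangle) of the P1-only regions and the median of regions open at P1 and later (square). The members' medians lie between 6.17 and 7.95, below the squares at 25.4 to 28.4, and the highest single value, 150, is in replicate 3.

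Members that met the rule by a small margin were more numerous than those that met it fully. A peak was present in all 4 P1 samples for 975 members and in 3 of 4 for 1656. The sample without a peak was replicate 1 for 329 members, replicate 2 for 590, replicate 3 for 169 and replicate 4 for 568. Just outside the rule lay 4331 regions found in 2 P1 samples and no later one (median 16.6th percentile) and 2671 regions found in at least 3 P1 samples and in 1 later sample (median 25.9th percentile at P1 and 14.3 in the later sample). That later sample was of P7 for 1250 regions, of P5 for 897 and of P3 for 524. For comparison, 1994 regions were present in all 3 P7 samples alone, 301 in all 3 P5 samples alone and 29 in all 3 P3 samples alone. A later peak lay within 500 bases of 465 members (17.7%), and the median distance to the nearest later peak was 3222 bases.

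P1 replicate 3 had the most strong members. It held 165 members with a -log10 p over 20, against 52, 36 and 60 in replicates 1, 2 and 4. Those 165, chosen for their value in replicate 3, had medians of 24.9 there and of 14.2, 11 and 13.3 in replicates 1, 2 and 4. The 52 members chosen in the same way in replicate 1 had a median of 25.1 there and 25.9 in replicate 3, and the 60 of replicate 4 had 24.7 there and 24.1 in replicate 3. The extreme cases were the members on chromosome 17 and in Rbfox1 printed above, 215 and 216 bases long. The chromosome 17 member had values of 21.2, 30.7, 150 and 57.6 in replicates 1 to 4. The Rbfox1 member had 20.9, 22.3, 146 and 39.9.

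In other strong members the P1 samples lay closer together. The one with the highest median percentile, at chr18:52673560-52674055 and 19810 bases from Gykl1, had -log10 p values of 50.5, 45, 42.7 and 29.2, and its window was repeat sequence throughout, of the group of 53. The Uroc1 member near Zxdc, chr6:90355584-90356015, had 48.9, 30.1, 44.3 and 26.5. A member in an intron of Cog1, chr11:113651007-113651611, 1341 bases from the start of the zinc transporter gene Slc39a11, had 28.8, 16.9, 44 and 46.5. A member 34966 bases from Rxfp1, the relaxin receptor gene, at chr3:79772416-79773199, had 35.3, 28.9, 36.1 and 27.5. At the other end, the 3 weakest members with a peak in all 4 samples had values between 2.02 and 5.77.

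Most members lay away from genes. The summit was within 1000 bases of an annotated start site (a promoter) for 120 members (4.56%), in an exon for 59 (2.24%), in an intron for 968 (36.8%) and between genes for 1484 (56.4%). Regions open at P1 and later were at promoters in 10.5% of cases. A closer comparison is with the 25682 of them that were weak, at or under the members' upper quartile of percentile. They were cut at this value and not matched to the members in strength. Of these weak regions, 4.03% were at promoters and 46.7% between genes. The median distance to a start site was 61188 bases for members and 35534 bases for the weak regions, and 45% against 59% were within 50 kb of one. Mostly repetitive windows made up 14.4% of members and 8.21% of the weak regions. The GC content of the windows was the same, with a median of 46.8% in both.

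**Figure D2:**
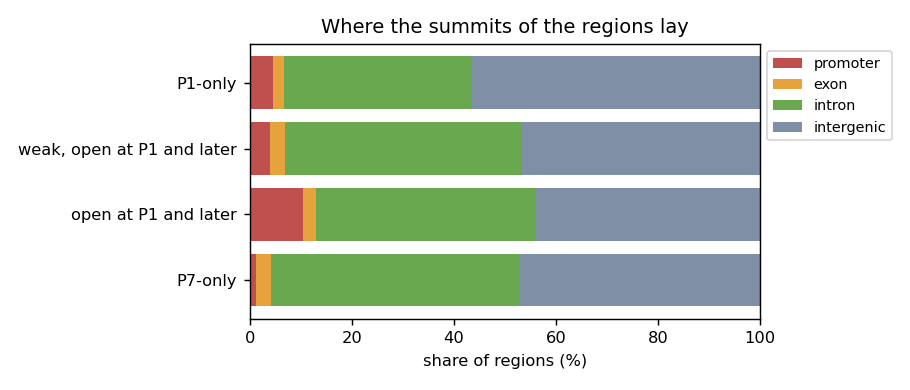
Share of regions (percent, bars to 100) whose summit lay at a promoter, in an exon, in an intron or between genes, for the P1-only regions, weak regions open at P1 and later, all regions open at P1 and later, and P7-only regions. Promoters take 4.56% of the P1-only regions, 4.03%, 10.5% and 1.2% of the others in that order.

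Members were found on every chromosome used, at 7.81 (chromosome 3) to 13.2 (chromosomes 9 and 16) per 10 Mb on the autosomes. The X chromosome held 41, or 2.4 per 10 Mb. It also held fewer P1 regions of any kind, and members made up 1.15% of its P1 regions against 1.43% to 2.26% on the autosomes. Another member lay within 10 kb of 187 members (7.11%).

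The motif content of the distal members (2511, those not at promoters) differed from that of the weak shared regions by the most percentage points for TEAD. As a ratio, rarer motifs differed more, such as CREB/ATF (0.119% against 0.389%). The TEAD motif, searched as GGAATG on both strands within 100 bases of the summit, is bound by the TEAD factors, the DNA-binding partners of YAP and TAZ. It was present in 12.4% of distal members, 19.5% of the weak regions open at P1 and later, 21% of P7-only regions and 19.9% of all distal regions. AP-1, the FOS and JUN dimer that binds TGANTCA, had shares of 27.5% in members, 28% in weak shared regions, 33.6% in P7-only regions and 29.5% in all. The KLF motif GGGTGTGG was in 1.55% of members and 2.7% of the weak regions. RUNX (TGTGGTT) was in 7.77% and 9.78%.

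Other motifs were more frequent in the members. The homeobox core TAATTA, read by HOX, LHX and PRRX proteins among many others, was in 8.48% of distal members against 5.22% of weak shared regions, 3.2% of P7-only regions and 4.75% of all distal regions. The NFY box CCAATCA was in 4.3% against 2.66% of weak shared regions. PU.1 (GAGGAAGT), the motif of a myeloid ETS factor, was in 3.11% against 2.07%. The commonest stretch of the shared group of 23 members contains this PU.1 motif, and was present in 7 members and 11 weak shared regions. The CTCF core was in 1.95% against 1.45%. In windows that were not mostly repeat, a restriction made after the data were seen, the shares in members and weak shared regions were 13% and 20.1% for TEAD, 8.92% and 5.36% for homeobox, 4.34% and 2.6% for NFY, and 2.24% and 1.89% for PU.1. A match is only a run of letters and was not taken as a bound site, and no test was made of these shares.

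**Figure D3:**
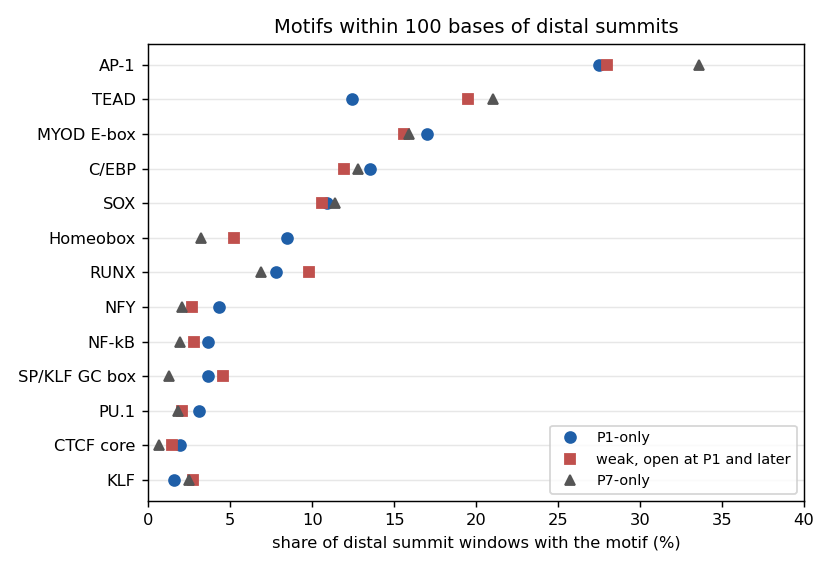
Share of distal summit windows (percent, 100 bases on each side) with a match to each of 13 motifs, for P1-only regions (circles), weak regions open at P1 and later (squares) and P7-only regions (triangles). TEAD is the motif with the widest gap between circles (12.4%) and squares (19.5%), and for homeobox the circle (8.48%) lies above the square (5.22%).

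Expression of the genes at and near the members was compared between passages to ask whether loss of the peak went along with a change in RNA. Loss of a member's peak does not by itself show that a whole promoter closed. Of the 120 promoter members, 63 had no later peak within 500 bases, against 2166 of all 2631 members. A gene was linked to a member when its start site was within 1000 bases of the summit (122 genes) or was the nearest one within 50 kb (1064 genes, through 1185 members). Together these were 1068 genes, of which 525 passed the filter on low counts and 217 had no count in any of the 16 libraries. Libraries held 13430229 to 15725823 counts. Differences were tested with edgeR's quasi-likelihood test across 13442 genes, and a gene was called when its adjusted p was under 0.05 and its fold over 2.

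Genes with a member at the promoter were mostly lower after P1 when they were called. Of the 60 tested, 11 were lower at P3, where 6.58% of all tested genes were lower, 13 at P5 (10.1% of all) and 19 at P7 (13.3% of all). Calls of higher expression numbered 1 at P3 (2.4% of all), 1 at P5 (4.83% of all) and 0 at P7 (8.1% of all). As shares of the 60 the lower calls were 18.3%, 21.7% and 31.7%. Among them were 4 genes that passed the filter only through their P1 counts and so had to be lower. Without these the lower calls were 7, 9 and 15 of 56, or 12.5%, 16.1% and 26.8%, against 5.19%, 8.78% and 12% of all genes treated the same way. The median log2 fold change of the 60 at P7 was -0.37, against -0.01 over all genes tested.

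The same direction was seen for the genes nearest to a member. Of 523 tested, 73 were lower at P3, 104 at P5 and 131 at P7 (14%, 19.9% and 25%, against 6.58%, 10.1% and 13.3% of all genes), and 11, 21 and 32 were higher (2.1%, 4.02% and 6.12%). In this group 17 genes had passed the filter only through P1, and without them the lower shares were 11.3%, 17.2% and 22.5%, against 5.19%, 8.78% and 12% of all genes. Genes nearest to a weak region open at P1 and later (5590 tested) were lower in 8.46%, 12.1% and 15.3% of cases, and in 6.71%, 10.4% and 13.7% without those that passed only through P1. Genes with such a weak region at the promoter (475 tested) were lower in 16.6%, 19.6% and 23.2%, and higher in 5.89%, 9.05% and 12.4%. Without genes that passed only through P1 their lower shares were 13.2%, 16.2% and 20%, against the 12.5%, 16.1% and 26.8% above. The gene groups overlap, and the differences between them were not tested.

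**Figure D4:**
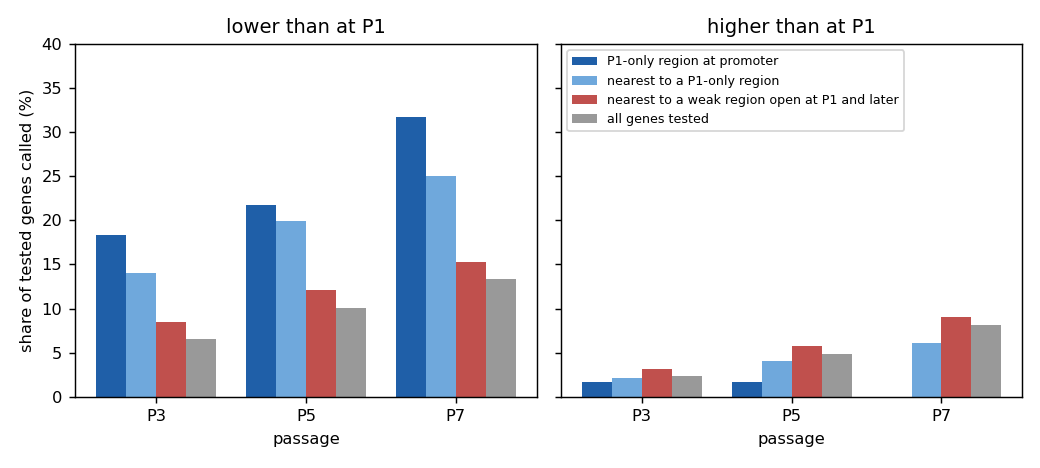
Share of tested genes (percent) called lower (left) or higher (right) than at P1 at P3, P5 and P7, for genes with a P1-only region at the promoter (60 tested), genes nearest to a P1-only region (523), genes nearest to a weak region open at P1 and later (5590) and all genes tested (13442). At P7 the lower shares are 31.7%, 25%, 15.3% and 13.3%. These include genes that passed the filter only through P1 and so had to be lower. Without them the shares are 26.8%, 22.5%, 13.7% and 12%. Genes with a weak region open at P1 and later at the promoter are not drawn. Their lower share at P7 is 23.2%, or 20% without such genes.

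The promoter genes with the largest falls are given by library, as CPM, the counts of a gene scaled to a library size common to all libraries. All 8 were chosen for their falls at P7. Of the 8, Nts, Rapgef5, Abcc9 and Tub passed the filter only through their P1 libraries, so their direction was fixed by the filter and their values are a description. Nts encodes the precursor of the peptide neurotensin. Its level was 8.22, 8.77, 7.04 and 9.96 CPM at P1 and 0.258 to 0.512 at P3. It had 3 counts in all at P5 and none at P7, so that P7 was at least 149-fold lower against a floor of 3 counts over the 4 libraries. The member at its promoter, chr10:102490355-102490691, was weak, with -log10 p values of 4.38, 10.9 and 4.18 in replicates 1, 3 and 4 and no peak in replicate 2.

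Rapgef5, which encodes an exchange factor for RAP GTPases, had 3 members nearest to it, one at its promoter with peaks in all 4 samples. Its level was 1.71, 1.43, 2.26 and 1.92 CPM at P1 and 0.0645 to 0.219 at P3. A single count was left over the 4 P7 libraries, a ratio of 96.2 (exact 95% counting interval 16.9 to 3832).

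Dchs1 encodes a large protocadherin that pairs with FAT4 in planar cell polarity. It had 40.5, 41.7, 48.7 and 35.5 CPM at P1, 11.6, 10.9, 9.28 and 5.78 at P3, 4.59, 4.56, 4.2 and 4.83 at P5, and 2.06, 4.48, 3.77 and 2.6 at P7. It fell at each passage tested, by 3.69 ± 0.21 (SE) on the log2 scale at P7 (edgeR adjusted p = 2.77e-11). The peak at its promoter was among the weaker ones, at 2.79, 4.68, 3.86 and 2.61.

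Htra3, a secreted serine protease, had 122, 85.3, 136 and 90.3 CPM at P1 and 13, 7.56, 11.1 and 11.4 at P7. It was the most expressed of the 8 promoter genes with the largest falls. The P3 libraries (29.6 to 55.5) and the P5 libraries (17.9 to 38.8) lay between. Its log2 fold change at P7 was -3.33 ± 0.25 (SE, edgeR adjusted p = 8.3e-10).

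Pianp, whose protein is a ligand of an inhibitory receptor on immune cells, had 2 members near its start sites. It fell from 16.8, 12.2, 13.2 and 15.5 CPM at P1 to 3 to 4.6 at P3, 1.62 to 3.57 at P5 and 0.153, 1.08, 0.845 and 1.63 at P7. The stronger member, printed above, had -log10 p values of 19.7, 13.2 and 16.9 in replicates 1, 3 and 4. Its summit also lay within the neighbouring gene Cops7a, and reads were counted without strand, so counts where genes overlap cannot be assigned to one of them.

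Bcl11a, a zinc finger repressor best known for silencing fetal globin, had few counts. Its levels were 0.89, 0.612, 0.889 and 1.24 CPM at P1 and 0.258 to 1.23 at P3, which overlapped. By P7 it had 3 counts, a ratio of 16 (exact 95% counting interval 5.2 to 80.1). Tub, the tubby gene, had 2.04 to 4.15 CPM at P1 and 0.0742 to 0.307 at P7. Abcc9, which encodes a subunit of potassium channels and is a marker of pericytes, had 0.685 to 1.42 CPM at P1 and 3 counts in all at P7, a ratio of 17.8 (exact 95% counting interval 5.8 to 88.6).

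**Figure D5:**
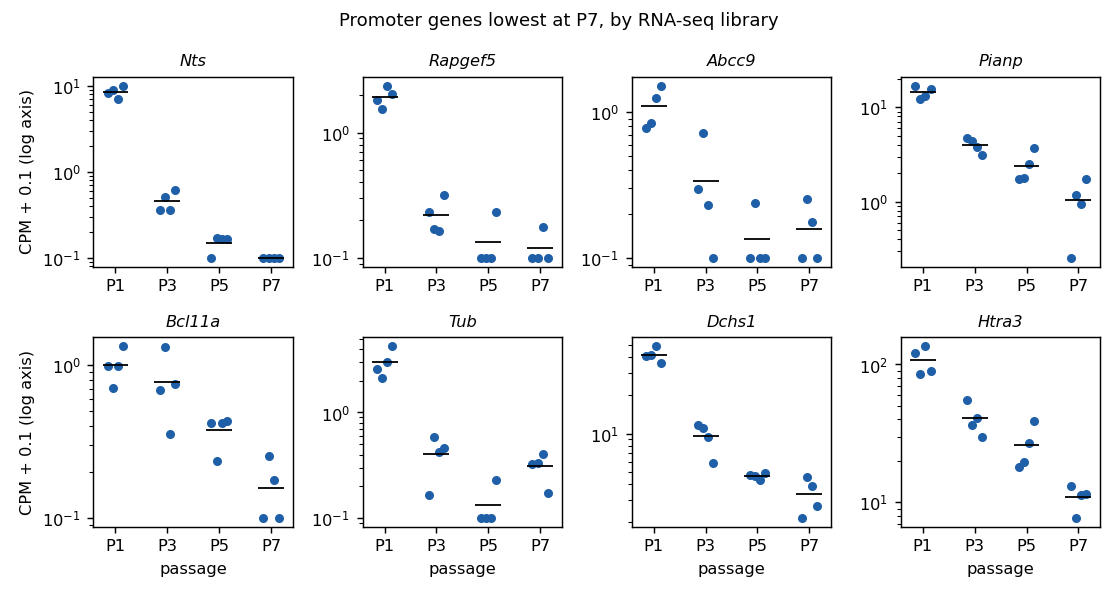
Expression in each of the 4 RNA-seq libraries per passage (points, CPM + 0.1 on a log axis) of the 8 promoter genes with the largest falls at P7, with the mean of CPM + 0.1 as a line. The P1 points lie above all P7 points in each panel. The fall in each panel follows from the choice of these genes, and the filter also fixed it for Nts, Rapgef5, Abcc9 and Tub. For Bcl11a the P1 and P3 points overlap.

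The other 11 promoter genes called lower at P7 had smaller changes. Ggt5, a gamma-glutamyltransferase, was at 18.1, 17.3, 18.6 and 10.1 CPM at P1 and 1.16 to 2.61 at P7, and its member belonged to the shared group of 47. Creb5, a bZIP factor of the CREB and ATF family, was at 18.6 to 21.7 CPM at P1, 22.2 to 26.6 at P3 and 5.5 to 8.95 at P7, so its fall came after P3. Ppat, the enzyme of the first committed step of purine synthesis, went from 38.7 to 41 CPM at P1 to 14.6 to 19.9 at P7. The summit of the Ppat member lay 762 bases from the Ppat start, within the neighbouring gene Paics. The growth factor gene Mdk, the interferon-induced GTPase gene Iigp1, the keratinocyte transglutaminase gene Tgm1, the stress-regulated kinase gene Sgk1, Prrt2, Wasf1, Tlcd1 and A430057M04Rik had log2 fold changes between -2.57 and -1.01 at P7. The summits of the Mdk and A430057M04Rik members lay within the neighbouring genes Dgkz and Comtd1. The promoter genes called higher were Myo5b, a myosin motor, at P3 (log2 fold change 1.43 ± 0.31 (SE), edgeR adjusted p = 0.00155), and C1qtnf7, a secreted C1q-related protein, at P5 (1.61 ± 0.20 (SE), edgeR adjusted p = 1.67e-06). Beyond the Pianp, Bcl11a, Ppat and Creb5 members, the 12 strongest promoter members included those of Tespa1, AV064505 and Gm9871, which had no counts in any library. Tceal8 was at 137 to 151 CPM at P1 and 124 to 167 at P7, and Dclk2, a kinase gene, was at 6.8 to 7.4 and 2.98 to 5.94, neither called at any passage. Rhpn2 was called lower at P3 alone, at 0.371 to 1.09 CPM at P1 and 0.131 to 0.439 at P3, and Sntg1 and Ppfia2 did not pass the filter.

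Most members near genes were single. Of the linked genes, 963 were nearest to 1 member, 84 to 2 and 17 to 3 or more. Rbfox1, a neuronal and muscle splicing regulator, had 6 within 50 kb of a start site, and 4 of these lay in chr16:5870257-5898681. The Rbfox1 member printed above was farther from a start site (79578 bases) and is not among the 6. Its RNA was near the detection limit, at 0.408 to 1.09 CPM at P1 and 1 count in all at P7, and did not pass the filter. Edn3, the endothelin ligand that guides melanocytes, had 3 members, 1 of them at its promoter. It had 0.136 to 0.41 CPM at P1 and no count at P7. Tnfrsf8 (CD30), the galanin receptor gene Galr1, Tmem132d, Tmem196, B230214G05Rik and 4930433I11Rik, with 3 members each, had no library above 0.612 CPM. Zxdc, a zinc finger gene, was expressed at every passage and was also among the 10 genes with most members. It was at 55.2 to 61.1 CPM at P1 and 24.8 to 34.7 at P7, a log2 fold change of -0.95 ± 0.10 (SE, edgeR adjusted p = 1.43e-07) that did not reach the fold threshold.

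Of 162 genes on the lists of pathways and factors, 7 (4.32%) were linked to a member, against 4.27% of all 24984 genes. No member was linked to any of 34 replication and mitosis genes, of which 32 were lower at P7. None was linked to any of 21 collagen and matrix genes or 18 cell-cycle inhibitors and secretory genes. The same held for 12 TEAD and Hippo genes and 10 imprinted growth genes. At 4.27% of genes, lists this short would hold few links or none, so these absences are not read as a result. Among 21 Wnt, BMP and hair follicle dermis genes, 8 were lower at P7 and 2 higher, and Dkk3 and Nkd1 had a member. Dkk3, a secreted Wnt modulator with a member 43 bases from a start site, was at 151 to 208 CPM at P1 and 298 to 370 at P7, a log2 fold change of 0.80 (edgeR adjusted p = 6.07e-05) under the fold threshold. Among 20 patterning factors, Tbx15, Pax1 and Osr2 had one member each. Osr2 was at 6.59 to 9.84 CPM at P1 and 1.31 to 2.82 at P7 and was called lower. Tbx15 was at 133 to 152 CPM at P1 and 158 to 186 at P7, a log2 fold change of 0.27 under the fold threshold. Among 14 interferon-stimulated genes, 8 were lower at P7, and the only one linked to a member, Ifit3, was called higher, at 11.4 to 12.5 CPM at P1 and 23.4 to 35.3 at P7. Iigp1, an interferon-induced gene outside this list, had a member at its promoter and was called lower at P7 (log2 fold change -2.57). Batf3 was the only one of 12 FOS, JUN and ATF genes with a member, and it did not pass the filter.

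The cells expressed fibroblast markers at every passage, with a summed level of 20 genes between 21589 and 24284 CPM at P1 and 36123 and 38041 at P7. Of these 20 genes, 5 were lower and 3 higher at P7, with a median log2 fold change of -0.11. Members were linked to 3 of them. Twist1, a mesenchymal bHLH factor with 2 members, was at 81.2 to 89.2 CPM at P1 and 57.7 to 70.3 at P7, and Fbn1, encoding fibrillin, was at 2099 to 2347 and 2500 to 3660, both without reaching the fold threshold. Dpp4, a surface peptidase that marks some dermal fibroblasts, was at 1.98 to 4.95 CPM at P1 and 0.0772 to 0.461 at P7. It too passed the filter only through P1, which fixed its direction.

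Macrophage, keratinocyte, muscle, endothelial and adipocyte markers were mostly lower at later passages, and those of pericytes and of Schwann cells and melanocytes were not. The summed level of 18 macrophage markers was 419 to 640 CPM at P1 and 38.8 to 66.6 at P7, with 16 of 17 tested genes lower at P7. For 26 keratinocyte markers it was 248 to 913 and 63.4 to 77.9, with 18 of 20 lower, and the highest P1 value, 913, was in 1 library, replicate 3. For 20 skeletal muscle markers it was 279 to 421 and 67.2 to 142, with 15 of 17 lower. For 14 endothelial markers it was 270 to 310 and 145 to 199, with 13 of 14 lower, and for 10 adipocyte markers 509 to 677 and 147 to 334, with all 6 tested lower. The 11 pericyte and smooth muscle markers summed to 3748 to 4926 and 6152 to 8234, with 2 of 10 tested lower and 3 higher. The 13 Schwann cell and melanocyte markers summed to 129 to 153 and 108 to 236, with 1 of 10 tested lower and 2 higher. Krt14, Krt17, Myod1, Myog, Sox17, Cldn5, Adipoq and Plin1 had no count at P7. In bulk RNA and bulk ATAC-seq, fewer cells of a type and less signal per cell cannot be told apart.

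Of the 112 listed markers of other cell types, 6 (5.36%) were linked to a member, near the 4.27% of all genes. Adgre1, the macrophage antigen F4/80, had 2 members nearest to it, 1 of them in an exon of Vav1, 30834 bases from the Adgre1 start. The level of Adgre1 was 13.5, 11.8, 12.1 and 6.93 CPM at P1 and 0 to 0.891 at P7. Myh3, the embryonic myosin heavy chain gene, had 1 member in an intron, and its level was 46.5, 45.7, 37.3 and 62.8 CPM at P1 with 1 count in all at P7. The melanocyte list had members near Tyr, Mitf and Ednrb, of which Mitf was at 28.2 to 40.3 CPM at P1 and 14.5 to 19.8 at P7 and was called lower at P5 alone. No marker on the keratinocyte, endothelial or adipocyte lists was linked to a member, although Tgm1, a keratinocyte gene outside these lists, had one at its promoter. These lists are short too, and the absence of links is not read as a result. Of the 132 linked genes lower at P7, 3 (Adgre1, Myh3 and Abcc9, or 2.27%) were listed markers of other cell types, against 71 (3.96%) of all 1792 genes lower at P7. The part of other cell types in the loss of the peaks was not tested.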

How the data were processed

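ATAC-seq peak lists of 13 samples and RNA-seq count tables of 16 libraries were analysed. The authors aligned ATAC-seq reads to mm10 with Bowtie2 in the ENCODE pipeline, removed duplicates, kept uniquely mapped reads and called peaks in each sample with MACS2 (version not given in the sources used here). The deposited peak lists give the fold enrichment, the −log10 p-value and the −log10 q-value of each summit. RNA-seq counts per gene were made by the authors with HISAT2 2.2.1 and HTSeq 0.12.4 (versions as in the submitters' processing notes), without strand, and the deposited counts are not normalized.

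Peaks sharing at least 1 base were merged. Start sites came from NCBI RefSeq GRCm38.p6, the build of the files, where 24463 of 24984 gene symbols matched directly and 418 through an older symbol. Motifs were searched in windows of 201 bases. Counts were filtered with filterByExpr, scaled by TMM and tested with edgeR 4.0.16 in R 4.3.3 over all 16 libraries, with Benjamini-Hochberg adjustment. SE values derive from the quasi-likelihood F statistic. DESeq2 1.42.0, other scalings and filters, and other region rules were alternatives. Scripts were tested on simulated data. Replicate libraries differed by more than sampling noise, and intervals cover counting error only.

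The members and gene lists were chosen with earlier results of these data known. The naming rule took the 12 strongest members in all 4 P1 samples, the 12 strongest promoter members, the 10 genes nearest to the most members, up to 8 called promoter genes with the lowest and up to 8 with the highest change at P7, and up to 4 genes per list. The other called promoter genes, the weakest members and the repeat group were named after their values were seen. A few items are not reported here.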

Additional observations from a re-analysis of the deposited data

Results flagged for a closer look

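In 109 groups of 4 samples, the value farthest from the others was compared with the range of the group, and 16 exceeded Dixon's 95% critical value, where chance flags about 1 in 20 groups. Among the peaks, the Rbfox1 member had a −log10 p of 146 in P1 replicate 3, far above the other 3 P1 samples. Among promoter genes at P1, Ggt5 was at 10.1 CPM in replicate 4 and A430057M04Rik at 0.951 CPM in replicate 2, both below the other libraries. At P3, Ppat was at 35.5 CPM in replicate 3, above the others, and Sgk1 at 93.5 CPM and Tgm1 at 0.731 CPM in replicate 4, below them. At P5, Myo5b was low in replicate 3 (5.23 CPM). At P7, C1qtnf7 was low in replicate 2 (3.01 CPM), Myo5b was high in replicate 4 (13.4 CPM) and Tgm1 was high in replicate 1 (1.37 CPM). The rest were genes with only a few counts, namely Nts at 0 CPM in P5 replicate 1, Rapgef5 at 0.132 CPM in P5 replicate 4 and 0.0769 CPM in P7 replicate 3, Abcc9 and Bcl11a at 0.138 CPM in P5 replicate 2, and Tub at 0.132 CPM in P5 replicate 4. No cause was tested.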

How the results depend on the processing

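Numbers of regions and genes moved mainly with the rule for membership. Requiring all 4 P1 samples left 975 regions. The promoter share was then 3.69%, and was 3.48% with lists of equal length, 6.33% where the peaks of a sample had to cover 50% of a region, 2.91% with no later peak within 500 bases, and 2.43% or 6.88% with promoter windows of 500 or 2000 bases. With 1 ATAC-seq sample left out there were 2809 to 5450 regions, of which 4000 to 5450 arose without 1 P1 sample, where 2 of 3 sufficed (4692, 5450, 4000 and 5294 without replicates 1 to 4), and promoter shares of 4.09% to 5.05%. Motif shares scaled with the window. Within 50 and 250 bases they were 6.85% and 24.7% for TEAD, 21.7% and 33.3% for AP-1, 4.78% and 18.4% for homeobox, and 2.63% and 7.57% for NFY. In regions of all 4 P1 samples the AP-1 share was 30%.

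Lower calls outnumbered higher calls among promoter genes in every alternative run. The same held over all tested genes in the main run, so the direction alone is not particular to the members. There, 885 genes were lower and 322 higher at P3, 1361 and 649 at P5, and 1792 and 1089 at P7. With regions of all 4 P1 samples, lower calls at P3, P5 and P7 were 5, 4 and 7 of 17 tested genes, and 0 were higher at P3. These lower shares were 29.4%, 23.5% and 41.2%, against 6.58%, 10.1% and 13.3% of all genes. Of the 17, 2 had passed the filter only through P1. Without a count filter the lower calls were 23 at P5 and 29 at P7 and the higher calls 2, 2 and 1. DESeq2 gave 20 lower at P5. A promoter window of 500 bases gave 11 lower at P7 and 0 higher at P3, and one of 2000 bases gave 3, 3 and 2 higher. Without genes that passed through P1 alone, chosen after seeing the data, 7 were lower at P3. For nearest genes, regions of all 4 P1 samples gave 32, 44 and 53 lower (17.3%, 23.8% and 28.6%) and 2, 6 and 8 higher. These were calls among 185 tested genes, of which 10 had passed the filter only through P1. A 10 kb limit gave 40, 48 and 59 lower and 3, 6 and 10 higher, and a 100 kb limit gave 17 and 34 higher at P3 and P5. The rules on regions and distances also change how many genes are considered, and the cause of the other shifts was not tested. For runs given as counts alone, the share of all genes called under the same setting is not given. Their counts are therefore not read as results about the members.

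Leaving out each RNA-seq library gave 9 to 13, 13 to 16 and 18 to 22 promoter genes lower at P3, P5 and P7 and 1 to 1, 1 to 2 and 0 to 1 higher, and 66 to 80, 103 to 117 and 132 to 147 nearest genes lower and 10 to 14, 16 to 24 and 31 to 35 higher. Here too the shares of all genes called in the same runs are not given. These counts are not read as results about the members. None of the promoter genes named for a call changed the sign of its P7 value in any alternative run.

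The labels give replicate numbers no shared source, and not every pair of the same number correlated above 0.1, so the numbers were not taken as pairs. Deviations from the group means correlated at -0.262 to 0.276 (median 0.0939) between the 24 pairs of the same number and -0.318 to 0.245 (median -0.0217) between the 72 pairs of different numbers. The 6 pairs of replicates 4 lay at 0.105 to 0.276, and 10 of 16 libraries had their highest mean correlation with their own number, a hint from the data and not from the design. With the replicate number as a block, promoter genes lower at P3, P5 and P7 numbered 11, 13 and 19, and nearest genes 73, 104 and 133. For this run as well, the share of all genes called is not given.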
